A study of Mus musculus with 20 samples.

Results

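The 10 genes described here encode splicing factors of the SR family: Srsf1, Srsf2, Srsf3, Srsf4, Srsf5, Srsf6, Srsf7, Srsf9, Srsf10 and Srsf11. They were chosen by name, with earlier results of these data known, and all 10 were found among the 37620 genes with counts. Their splice junctions were taken from the same mice and amounted to 298 of 554616 junctions, from which 75 of 80277 alternative splicing events were built. RNA came from whole bone marrow of 20 recipient mice, 5 in each group. The groups were U2AF1(WT) mice given vehicle, U2AF1(WT) mice given sudemycin D6, U2AF1(S34F) mice given vehicle and U2AF1(S34F) mice given sudemycin D6. All recipients had been transplanted with donor marrow that carried the rtTA transgene and a doxycycline-inducible U2AF1 transgene. The marrow was left to engraft for more than 6 weeks, the transgene was then induced with doxycycline for 7 days in every group, and drug or vehicle was infused on the last 5 of those days. Donor marrow was pooled before transplantation, so mice of a genotype share donors, and the spread between mice does not include the spread between donors. WT and S34F below stand for the 2 transgenes.

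SR proteins bind short enhancer sequences in exons through their RNA recognition motifs and, through a tail rich in arginine and serine, recruit the U1 and U2AF complexes to the neighbouring splice sites. Most SR genes hold an ultraconserved poison exon or an alternative intron in which the reading frame meets an early stop. A transcript with that segment is degraded by nonsense-mediated decay (NMD), and a high level of the SR protein promotes its own poison splicing, which keeps the level in bounds. U2AF1 reads the AG at the 3′ splice site, its S34F mutation in myelodysplastic syndromes changes the preference for the base before that AG, and sudemycin D6 binds SF3B1, the U2 protein at the branch point.

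The 3′ splice sites of the poison choices are shown because U2AF1 acts there. Each run is the last 20 bases of the intron and the first 3 of the exon, from build NCBIM37 (mm9), 5′ to 3′ on the strand of the gene, with the base before the AG in capitals. "Poison" marks the site that leads into the poison isoform and "coding" the site it competes with or precedes.
Srsf3 poison, chr17:29176379-29176401, plus strand: aaaaatgaaccccgttaCagagt
Srsf3 coding, chr17:29177700-29177722, plus strand: tttactgtttctgcttcTagatc
Srsf2 poison, chr11:116713063-116713085, minus strand: tgcattttccccctttaAagctg
Srsf2 coding, chr11:116712273-116712295, minus strand: ctctttcttttcaaaccTagatg
Srsf11 poison, chr3:157686321-157686343, minus strand: tttttctgtgtgctttaTagtga
Srsf11 coding, chr3:157685912-157685934, minus strand: gcaaggatgtttctctgCaggag
Srsf5 poison, chr12:82049096-82049118, plus strand: ttaaaccctttatttgcCagcct
Srsf5 coding, chr12:82050062-82050084, plus strand: cataattgtcttgtgttAaggat
Srsf9 poison, chr5:115781439-115781461, plus strand: tgctctgaactcctgctTagaaa
Srsf9 coding, chr5:115782106-115782128, plus strand: ctcttccattctctgccTaggac
Srsf7 poison, chr17:80604419-80604441, minus strand: acctggtcaaaacctttCaggtt
Srsf7 coding, chr17:80603725-80603747, minus strand: ttttctaacttaaaaaaTaggtc
Srsf6 poison, chr2:162758531-162758553, plus strand: ttgatgtttcaatttgaAagtga
Srsf6 coding, chr2:162759142-162759164, plus strand: actcccttcatgtgataAaggtg
Over the 27 distinct 3′ splice sites of the events described here, the base before the AG was T at 13, C at 9 and A at 5.

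Poison choices were read in frame from an annotated coding transcript where that transcript held the event. The Srsf3 poison exon has 456 bases, and its frame closes after 34 of them, shown with the stop in capitals.
Srsf3 exon start to stop, chr17:29176399-29176432, plus strand: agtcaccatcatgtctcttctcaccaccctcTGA
Srsf7 exon start to stop, chr17:80604394-80604421, minus strand: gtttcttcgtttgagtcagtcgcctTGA
Srsf9 exon start to stop, chr5:115781459-115781469, plus strand: aaaactatTAG
With the exon, Srsf3 encodes 124 codons in place of 164, Srsf7 (460 bases) 137 in place of 238, Srsf9 (90 bases) 120 in place of 222, Srsf6 (268 bases) 135 in place of 339 and Srsf11 (117 bases) 156 in place of 511. The upstream 3′ splice site of Srsf5 shortens its frame from 269 to 138 codons. Srsf2 differs in kind: its exon of 104 bases lies in the 3′ UTR behind an unchanged frame of 221 codons, and it moves the last junction from 7 to 111 bases behind the stop, past the limit of 50 bases used here for NMD. The Srsf1 choice, between 3′ splice sites of which the downstream site belongs to an annotated NMD transcript, was classed by annotation alone. Read in a coding transcript, the downstream site gives 196 codons in place of 248. Its stop then lies behind the last junction, so the frame did not class it as poison. The Srsf7 exon shown above is absent from the annotation used and was found from its junction reads. For Srsf10 no poison event was found.

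**Figure D1:**
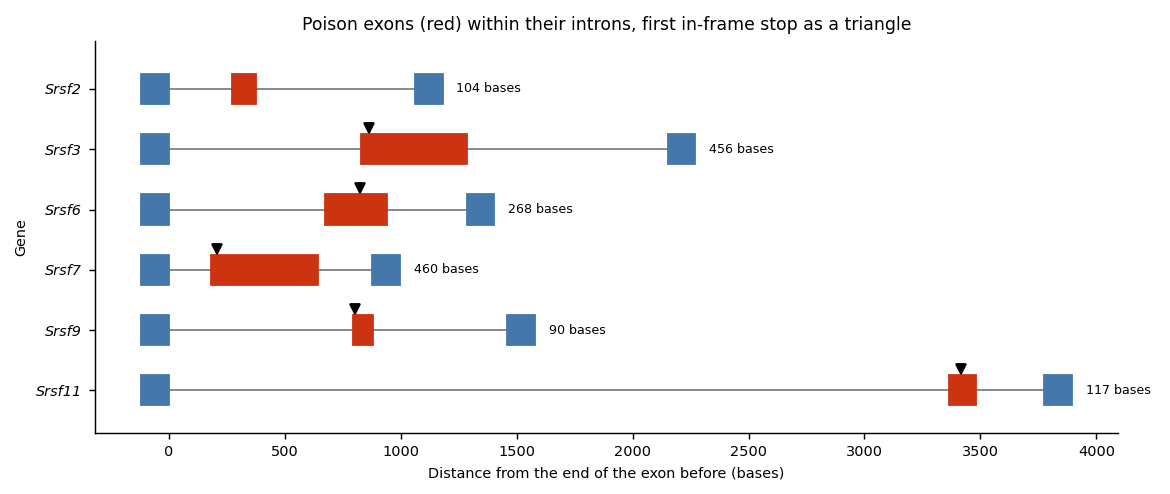
Position of the 6 poison cassette exons (red) within their introns, in bases from the end of the exon before, with the flanking exons (blue) drawn at a fixed width and the in-frame stop as a triangle. The stop falls inside the exon in 5 genes; the exon of Srsf2, of 104 bases, follows a stop in the exon before it.

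Each mouse had between 41145892 and 62138138 reads assigned to genes, and the 10 SR genes received between 46338 and 83497 junction reads in each mouse. Reads on U2af1 were between 34.8 and 38.4 CPM (read counts scaled to library size) in WT vehicle mice, 38.5 and 48.3 in WT drug mice, 46.4 and 54.3 in S34F vehicle mice and 51.4 and 58.0 in S34F drug mice; the counts do not tell the S34F allele from the normal allele. Xist had at least 39145 counts in every WT mouse and at most 8 in every S34F mouse, and 4 Y-linked genes the reverse (at most 4 against at least 10270), so sex and genotype cannot be told apart in any comparison of genotypes below. Markers of erythroid, neutrophil, B, monocyte, megakaryocyte and T/NK cells were all detected. The 6 neutrophil markers summed to between 30759 and 34524 CPM in WT vehicle mice and between 42976 and 67453 CPM in S34F vehicle mice, and the 6 cycling genes to between 2149 and 3640 against between 3421 and 4125 CPM. Of the 6 neutrophil markers 2 were called between these groups, S100a8 (log2 1.26 ± 0.20, FDR 0.000735) and Camp (0.41 ± 0.14, FDR 0.0424), and the median of the 6 was 0.20. Of the 6 cycling genes 3 were called (Top2a, Cdk1 and Pcna), with a median of 0.31. Of all genes 39.5% were called between these groups, 19.7% higher and 19.8% lower. Among monocyte markers 2 fell, among megakaryocyte markers 1 rose and 1 fell, and among T/NK markers 2 rose and 1 fell. No erythroid or B cell marker was called between these groups. The 6 B cell markers summed to between 32.3 and 115 CPM in WT vehicle mice. In S34F drug mice they summed to between 28.9 and 44.1 CPM, and all 6 were called lower, where 25.1% of all genes were. The part of these shifts in the results below was not tested. In whole marrow, a change in the mix of cells and a change within cells cannot be told apart.

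Srsf5 was the most abundant of the 10 genes. Per length (RPKM, the CPM per kilobase of the union of exons) WT vehicle mice had 142 ± 21.5 RPKM (SD, n = 5) of Srsf5, 47.8 ± 2.74 of Srsf3, 38.4 ± 1.93 of Srsf1 and 38.0 ± 1.96 of Srsf6. Srsf7 (31.6 ± 1.48) and Srsf9 (28.8 ± 1.80) followed, then Srsf4 (17.8 ± 2.46), Srsf11 (16.1 ± 0.448), Srsf2 (13.9 ± 2.00) and Srsf10 (10.7 ± 0.685 RPKM). The ranges of neighbours in this order overlapped for Srsf1 and Srsf6, for Srsf7 and Srsf9, for Srsf4 and Srsf11 and for Srsf11 and Srsf2, and not for the others. Srsf5 was first and Srsf10 last in all 4 groups. Exons overlap genes on the opposite strand at Srsf1 (98 bases), Srsf2 (293 bases, Mfsd11) and Srsf4 (1551 bases); the libraries keep the strand, but the strand setting of the counting is not given in the sources used here.

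**Figure D2:**
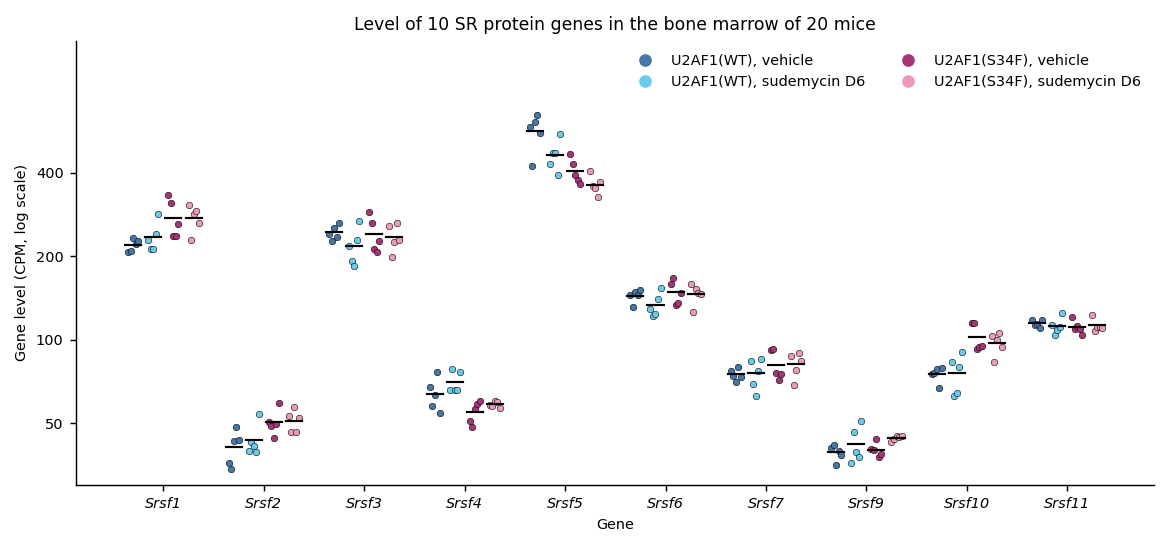
Level of each SR gene in CPM (log axis) in each of 20 mice, by genotype and treatment; points are mice and lines group means. Srsf5 falls from a mean of 566 CPM in WT vehicle mice to 363 in S34F drug mice, while Srsf10 lies higher in both S34F groups than in WT vehicle mice.

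Whether the drug changes these genes in WT marrow was asked first. None of the 10 genes was called (0 of 10 at FDR<10%, where 3.07% of all 14763 genes tested were called, 1.18% higher and 1.89% lower). The largest differences were in Srsf5, a factor that resembles SRSF4 and SRSF6 in its paired recognition motifs, with a mean of 566 CPM under vehicle and 464 under drug (log2 fold change −0.31 ± 0.13 SE, FDR 0.296, and 0.0802 without WT vehicle mouse 2), and in Srsf3, the smallest SR protein and an adaptor for mRNA export (−0.18 ± 0.11, FDR 0.515). The splicing of Srsf3 did change. Its poison exon was spliced into 11.3, 11.6, 13.3, 15.0 and 17.6% of transcripts in the 5 WT vehicle mice and into 6.64, 6.84, 7.05, 11.1 and 12.4% in the 5 WT drug mice; over all 20 mice the event had between 1011 and 2026 reads per mouse. The highest drug mouse, at 12.4%, lies within the vehicle range, and the other 4 lie below it. Ψ, the share of the isoform with the exon, fell by 4.95 percentage points (edgeR test on the inclusion and skipping reads, FDR 0.000338). This was the single call among 62 SR events tested (1.61%), where 0.377% of 59906 events were called in all, 0.219% with a lower and 0.159% with a higher Ψ. The call ended with limma on Ψ (FDR 0.711) and with a variance trend over all reads of an event (FDR 0.138), and it held when any of the 10 mice was left out.

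The reads on each isoform were compared to see which side of the ratio moved, scaled to the library size of the gene counts. This scale does not correct for differences between mice in the share of reads on junctions. WT vehicle mouse 3, for example, had 41145892 gene reads and 34384214 junction reads. The junction that skips the Srsf3 exon rose from 18.8 ± 1.29 to 25.7 ± 7.15 CPM under drug (SD, n = 5; exact permutation test, p = 0.0476), while reads per junction of the exon were 3.0 ± 0.541 and 2.36 ± 0.472 CPM (exact p = 0.0952). The counts of the whole gene did not follow the skipping junction, with 244 and 219 CPM. These exact tests are not adjusted. There were 75 comparisons of this kind on each of the 2 isoforms of the events, and 0.00794 is the smallest p that 5 mice against 5 allow. Over the called events from annotated splice sites, 17 isoform levels had an exact p under 0.05, and 15 when scaled by all junction reads.

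The poison exon of Srsf7, which encodes another export adaptor, moved the same way. It was in 11.7, 14.8, 16.4, 19.2 and 21.2% of transcripts in WT vehicle mice and in 8.36, 9.02, 9.56, 12.3 and 13.1% in WT drug mice. The groups overlap between 11.7 and 13.1%. Ψ fell by 6.20 percentage points (FDR 0.0926) in the test that takes unannotated splice sites, in which 2 of 110 SR events were called against 1.02% of all events. The Srsf1 NMD site, in the gene of the founding SR protein, had between 1.27 and 3.0% of reads under vehicle and between 0.274 and 0.926% under drug, ranges that do not overlap. The Srsf1 difference was not called (FDR 0.453, unadjusted p = 0.00560 in edgeR; FDR 0.0967 with the variance trend over all reads), and it rests on between 4 and 30 reads per mouse.

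**Figure D3:**
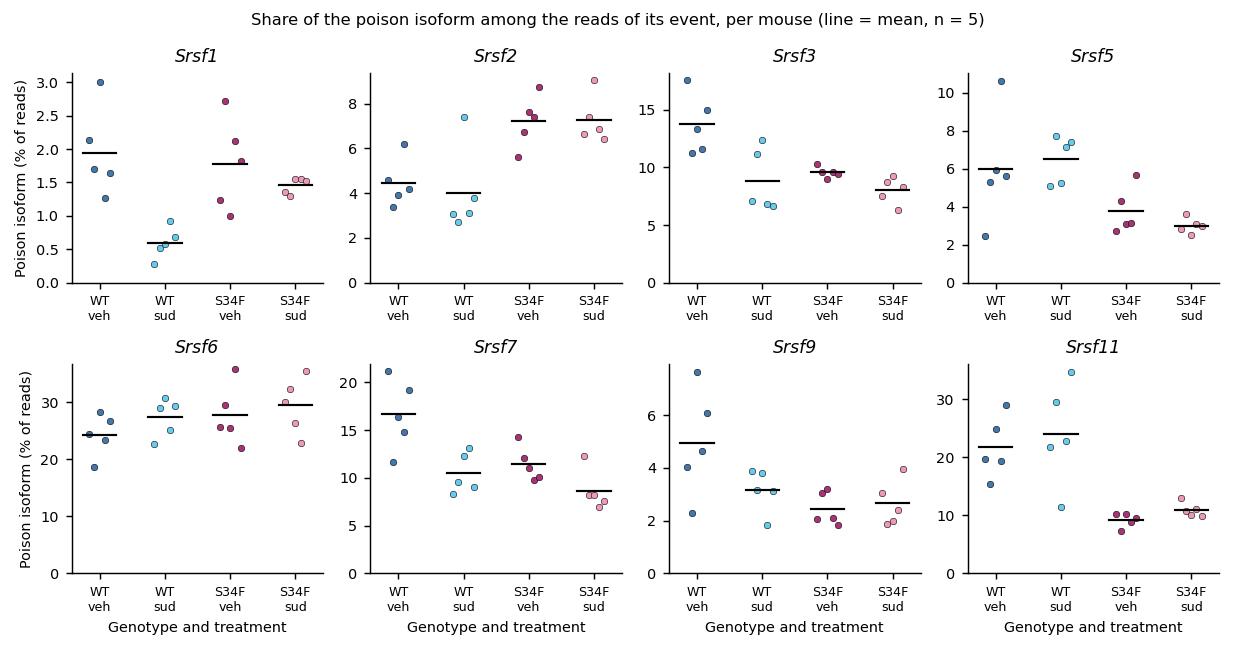
Share of the poison isoform (% of reads of the event, normalised per junction) for 8 SR genes in each mouse, by genotype (WT, S34F) and treatment (veh, vehicle; sud, sudemycin D6); points are mice and lines means of 5. Srsf3 and Srsf7 stand highest in WT vehicle mice (means 13.8 and 16.7%), and Srsf11 is lower in both S34F groups (9.29 and 11%) than in both WT groups.

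In S34F marrow no SR gene and no SR event was called for the drug: 0 of 10 genes, where 10.8% of 14714 were called (4.94% higher, 5.85% lower), and 0 of 66 events, where 0.512% of 63496 were (0.323% with a lower and 0.189% with a higher Ψ). At an unadjusted p under 0.05 there were 2 SR events. The Srsf3 poison exon was one of them, with 9.03, 9.41, 9.56, 9.60 and 10.3% under vehicle and 6.33, 7.51, 8.29, 8.77 and 9.28% under drug. Its Ψ was 1.55 percentage points lower (FDR 0.495), with the ranges meeting between 9.03 and 9.28%. Reads per junction of the exon were lower in every drug mouse (2.90 ± 0.342 against 2.24 ± 0.212 CPM, exact p = 0.00794), and the skipping junction had 27.3 ± 1.93 and 26.1 ± 4.19 CPM (exact p = 0.556). The lowest FDR among the SR genes was that of Srsf9, a regulator of stress splicing programmes, with 40.1 ± 2.33 and 44.2 ± 0.843 CPM (log2 0.14 ± 0.05, FDR 0.143, and 0.0564 without S34F vehicle mouse 5); Srsf5 had the largest difference, −0.17 ± 0.08 (FDR 0.252).

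Whether the drug acts differently by genotype was tested as an interaction over all 20 mice. No SR gene (0 of 10, against 0.013% of 15392 genes) and no SR event (0 of 74, against 0.00771% of 77841 events) was called. The Srsf3 exon fell by 4.95 points in WT and by 1.55 points in S34F mice, and the interaction had an unadjusted p = 0.0120 in edgeR and an FDR of 1. At an unadjusted p under 0.05 there were 4 SR events and no SR gene.

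S34F mice were then compared with WT mice under vehicle, where genotype and sex cannot be told apart. Srsf10, which represses splicing when dephosphorylated, had 67.0, 75.4, 76.1, 78.5 and 78.8 CPM in WT mice and 92.5, 94.4, 95.3, 114.8 and 115.0 CPM in S34F mice. Every S34F mouse lay above every WT mouse (log2 fold change 0.43 ± 0.08 SE, FDR 0.00194). Srsf1 rose from 219 ± 11 to 276 ± 44.0 CPM (0.32 ± 0.10, FDR 0.0271), with no overlap. Srsf2, which encodes an SR protein itself mutated in myelodysplastic syndromes, rose from 41.0 ± 5.93 to 50.4 ± 5.42 CPM (0.29 ± 0.11, FDR 0.0534), with overlap; the call was lost without WT vehicle mouse 1 (FDR 0.130) or S34F vehicle mouse 11 (0.142). Srsf5 had 425, 559, 588, 611 and 649 CPM in WT and 364, 377, 392, 430.2 and 467 CPM in S34F mice. Its lowest WT mouse lies among the S34F mice, and the gene fell (−0.49 ± 0.11, FDR 0.00581). Srsf4 had 63.9 ± 8.80 and 54.9 ± 5.02 CPM and missed the threshold (−0.23 ± 0.10, FDR 0.101), which it passed when any of WT vehicle mice 2 and 5 and S34F vehicle mice 7 and 11 was left out (FDR 0.0533 to 0.0960). In all 4 of 10 SR genes were called, where 39.5% of 14817 genes were, 19.7% of all genes higher and 19.8% lower. The share of SR genes called is close to that of all genes. The log2 fold changes of Srsf3, Srsf6, Srsf7, Srsf9 and Srsf11 lay between −0.06 and 0.10.

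**Figure D4:**
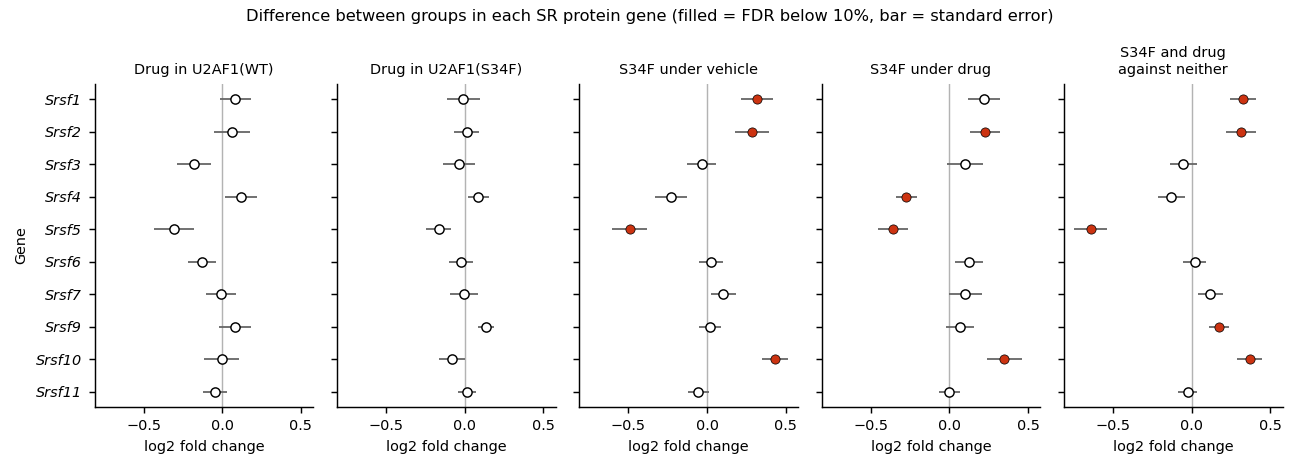
Log2 fold change of each SR gene (points, bars are standard errors) in 5 comparisons of 5 against 5 mice; filled points pass FDR<10%. The drug panels hold no filled point, and Srsf2, Srsf5 and Srsf10 are filled in all 3 panels that set S34F against WT mice.

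In splicing, 6 of 64 SR events were called between S34F and WT under vehicle (9.38%, against 1.17% of 61986 events, 0.661% with a lower and 0.51% with a higher Ψ), in Srsf2, Srsf3 and Srsf11, and 3 of the 6 were poison exons. Srsf11, an SR-related protein that interacts with U2AF, showed the largest change in a well covered exon. Its poison exon was in 15.5, 19.4, 19.8, 24.9 and 29.1% of transcripts in WT mice and in 7.30, 8.90, 9.61, 10.3 and 10.3% in S34F mice, from between 268 and 522 reads per mouse. No S34F mouse reached the lowest WT mouse, and Ψ fell by 12.4 percentage points (FDR 4.83e-05). Reads per junction of the exon fell from 1.25 ± 0.0940 to 0.612 ± 0.0905 CPM (exact p = 0.00794), and the skipping junction had 4.72 ± 1.40 and 6.02 ± 0.865 CPM (exact p = 0.119). The level of the gene was not called, with 115 and 111 CPM (log2 −0.06 ± 0.07, FDR 0.552).

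The Srsf2 exon in the 3′ UTR moved the other way. It was in 3.36, 3.90, 4.18, 4.60 and 6.19% of transcripts in WT mice and in 5.62, 6.73, 7.38, 7.62 and 8.73% in S34F mice. The ranges meet between 5.62 and 6.19%, and Ψ rose by 2.77 percentage points (FDR 0.000271). Reads per junction of the exon rose from 1.53 ± 0.397 to 2.93 ± 0.563 CPM (exact p = 0.00794), and the other isoform had 33.1 ± 4.82 and 37.6 ± 2.95 CPM (exact p = 0.111). In Srsf2 the poison isoform and the gene thus rose in the same comparison.

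The Srsf3 poison exon was lower in S34F vehicle mice (9.03 to 10.3%) than in any WT vehicle mouse (11.3 to 17.6%), by 4.18 percentage points (FDR 0.00566). Here reads per junction of the exon had 3.0 ± 0.541 and 2.90 ± 0.342 CPM (exact p = 0.778), and the skipping junction rose from 18.8 ± 1.29 to 27.3 ± 1.93 CPM (exact p = 0.00794). Without WT vehicle mouse 1, which had the highest Ψ of 17.6%, Ψ fell by 3.22 points and the call was lost (FDR 0.109). The same WT vehicle mice enter the drug comparison in WT marrow, so the Srsf3 calls there and here are not independent.

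**Figure D5:**
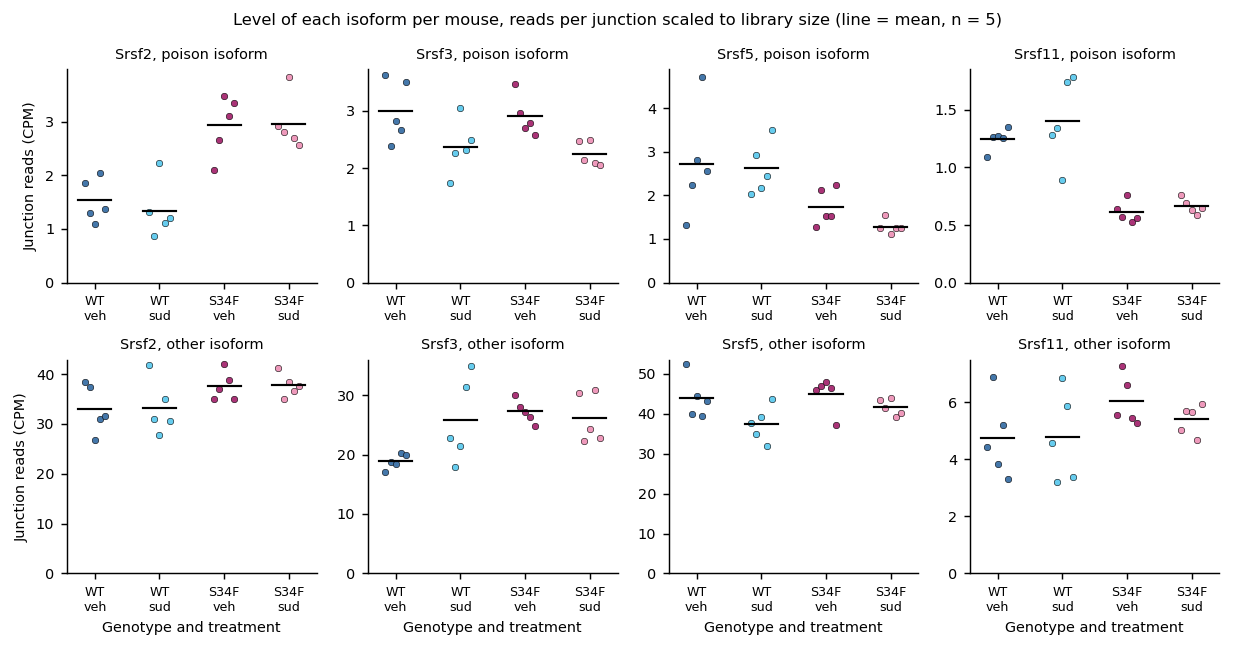
Reads per junction in CPM on the poison isoform (top) and on the other isoform (bottom) of Srsf2, Srsf3, Srsf5 and Srsf11 in each mouse, by genotype and treatment; lines are means of 5. The poison isoform is higher in S34F mice in Srsf2 (means 2.93 and 2.96 CPM) and lower in Srsf11 (0.612 and 0.662 CPM), whereas in Srsf3 the other isoform is lowest in WT vehicle mice (18.8 CPM).

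A further junction of Srsf11 made the other 3 calls. It skips a coding exon near the 3′ end of the gene, is not annotated, and was read between 6 and 25 times in each S34F vehicle mouse and at most 1 time in each WT vehicle mouse. Set against an annotated junction from the same donor to a site further downstream, it took 24.0 ± 7.67% of reads in S34F and 1.05 ± 1.46% in WT mice (Ψ higher by 23.0 points, FDR 0.0793), with between 12 and 78 reads per mouse over the 4 groups. Set against the inclusion of the skipped exon in its forms of 96 and 117 bases, the same reads gave inclusion lower by 1.89 points (FDR 0.0472) and by 2.82 points (FDR 0.0860). These 3 events share that junction and are not independent, and none was classed as poison. The first call was lost when any 1 of WT vehicle mice 1, 2, 3 and 5 and S34F vehicle mice 1, 3 and 11 was left out (FDR 0.153 to 0.204), and that of 117 bases when any 1 of WT vehicle mice 1 to 5 and the same S34F mice was (0.116 to 0.244). The form of 96 bases was lost when any 1 of WT vehicle mice 1, 2 and 5 and S34F vehicle mice 3 and 11 was left out (0.112 to 0.161). Under drug the junction took 19.2 ± 6.43% of reads in S34F and 3.85 ± 7.25% in WT mice (FDR 0.492, not called). Inclusion of both forms did not overlap between the genotypes under drug (FDR 0.492 for each, not called). Between S34F drug and WT vehicle mice none of the 3 events was called (FDR 0.172 to 0.221), and with limma on Ψ all 3 were (0.0117 to 0.0331). Both acceptors are shown, with the base before the AG in capitals.
Srsf11 acceptor of the skipping junction, chr3:157675410-157675432, minus strand: attttaactattctttcTagaca
Srsf11 downstream acceptor, chr3:157675365-157675387, minus strand: aaggacaaagaaagaagCagaga

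With limma on Ψ the calls of all 3 poison exons were lost in this comparison (FDR 0.127 for Srsf11, 0.274 for Srsf2 and 0.360 for Srsf3). The Srsf5 site, called in the comparisons below, was here 2.19 points lower in S34F mice and missed the threshold (FDR 0.108), which it passed without WT vehicle mouse 1 (0.00314) or S34F vehicle mouse 11 (0.0427). The Srsf1 junction to the coding site rose from 26.1 ± 3.66 to 38.0 ± 1.89 CPM, above every WT vehicle mouse (exact p = 0.00794), with the NMD site at 1.95 and 1.78% of reads.

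Under drug the same genotypes differed in 4 of 10 SR genes, where 36.8% of 14677 genes were called (17.2% higher, 19.6% lower). Srsf10 rose from 75.9 ± 12.1 to 97.1 ± 8.99 CPM (0.35 ± 0.11, FDR 0.0358) and Srsf2 from 43.4 ± 6.00 to 51.0 ± 4.46 CPM (0.23 ± 0.10, FDR 0.0919). Srsf5 fell from 464 ± 58.5 to 363 ± 29.2 CPM (−0.36 ± 0.10, FDR 0.0170). Srsf4, a shuttling SR protein of the Srsf5 type, had between 65.6 and 78.5 CPM in WT and between 56.5 and 59.9 CPM in S34F mice, with no overlap (−0.27 ± 0.07, FDR 0.0110). Srsf1 had 236 and 275 CPM (0.22 ± 0.10, FDR 0.134). The Srsf2 call was lost when any of WT drug mice 6, 8, 9 and 10 or S34F drug mice 2, 9 and 12 was left out (FDR 0.114 to 0.178).

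In the same comparison 3 of 63 SR events were called (4.76%, against 1.14% of 62507, 0.677% with a lower and 0.467% with a higher Ψ), each of them a poison choice. The Srsf11 exon was in 11.5, 21.9, 22.9, 29.5 and 34.7% of transcripts in WT drug mice and in 9.83, 10.1, 10.8, 11.1 and 13.1% in S34F drug mice. The lowest WT mouse lies within the S34F range, and Ψ fell by 13.1 points (FDR 4.44e-05). The Srsf2 exon had 4.0 ± 1.93% in WT and 7.26 ± 1.06% in S34F mice (3.26 points higher, FDR 6.35e-08), and WT drug mouse 9, with 7.39%, reached the S34F range. The upstream poison site of Srsf5 was used in 5.11, 5.27, 7.12, 7.41 and 7.75% of transcripts in WT and in 2.49, 2.81, 3.01, 3.07 and 3.61% in S34F mice. The groups do not overlap, and the site fell by 3.53 points (FDR 1.39e-05). Reads on this site fell from 2.62 ± 0.597 to 1.28 ± 0.158 CPM (exact p = 0.00794), while those on the coding site had 37.5 ± 4.40 and 41.7 ± 2.05 CPM (exact p = 0.0873). The Srsf3 exon had 8.82 ± 2.74 and 8.04 ± 1.15% (FDR 0.764) and was not called. With limma on Ψ the calls of Srsf2 and Srsf11 were lost (FDR 0.402 for both).

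S34F drug mice were last set against WT vehicle mice, which differ in transgene, sex and drug. These groups also enter the comparisons above, so the values below are not independent of them. Of the 10 SR genes 5 were called, where 50.2% of 14761 genes were (25.1% in each direction). Srsf5 had between 327 and 407 CPM in S34F drug mice, below the lowest WT vehicle mouse (425 CPM), and the gene fell by 0.64 ± 0.11 on the log2 scale (FDR 0.000495). Srsf1 (0.33 ± 0.08, FDR 0.00678), Srsf2 (0.31 ± 0.10, FDR 0.0207), Srsf9 (0.17 ± 0.06, FDR 0.0444) and Srsf10 (0.37 ± 0.08, FDR 0.00242) rose, of which Srsf9 was lost without WT vehicle mouse 3 (FDR 0.136). Of 65 SR events 5 were called (7.69%, against 2.03% of 64302, 1.18% with a lower and 0.852% with a higher Ψ), all poison choices. The Srsf3 exon fell from 13.8 ± 2.61 to 8.04 ± 1.15% (5.73 points, FDR 3.88e-08), with no overlap between the groups, and Srsf11 fell by 10.8 points (FDR 0.000960). Srsf5 fell by 2.98 points (FDR 0.000278) and Srsf2 rose by 2.82 points (FDR 2.45e-05). The Srsf9 exon fell from 4.94 ± 2.04 to 2.66 ± 0.857% (FDR 0.0947), from between 35 and 96 reads on the exon per mouse; this call was lost without WT vehicle mouse 3 (FDR 0.384), WT vehicle mouse 5 (0.364) or any of S34F drug mice 2, 6, 9 and 10 (0.129 to 0.334). With unannotated sites, where 12 of 111 SR events and 4.21% of all events were called, the calls of Srsf5 (FDR 0.212) and Srsf9 (0.151) were lost and the Srsf7 exon was called, at 16.7 ± 3.72 and 8.65 ± 2.12%; it fell by 8.01 points (FDR 0.00142). With limma on Ψ the calls from annotated sites were lost for Srsf3 (FDR 0.107), Srsf11 (0.114), Srsf2 (0.146), Srsf9 (0.604) and Srsf5 (0.625).

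Srsf6 and Srsf4 poison exons were not called in any of the 5 comparisons. Srsf6, which regulates tau and other exons, had the highest median share among the exons whose inclusion gives the poison isoform. This share was 26.6% over the 20 mice, with a range from 18.7 to 35.8%. Group means were 24.3, 27.4, 27.7 and 29.4% in WT vehicle, WT drug, S34F vehicle and S34F drug mice. In further events the poison isoform skips an exon, and none of these was called. Skipping of a Srsf11 exon of 64 bases, classed by annotation alone, had a median of 84.0% (range 69.8 to 100%). It rested on between 40 and 108 reads per mouse. Skipping of an annotated Srsf7 exon of 181 bases, which leaves 10 codons, had a median of 0.498%. The 2 poison exons of Srsf4 were each in at most 7.14% of transcripts of a mouse and rested on at most 16 reads. A longer route into the same Srsf4 intron, from its first exon, took 28.6 ± 5.09% of reads under vehicle and 20.7 ± 3.55% under drug in S34F mice (exact p = 0.0238) and between 19.9 and 26.4% as means in WT mice (exact p = 0.175). Srsf10 splices an intron of the rare AT-AC class. A competing site with GT-AG ends took 24.3 ± 6.36, 22.4 ± 5.76, 21.0 ± 3.88 and 20.7 ± 3.06% in the 4 groups, and the lowest exact p of the 5 comparisons was 0.317. Junctions found only in annotated NMD transcripts made up between 16.8 and 24.5% of the Srsf2 junction reads of a mouse (3 junctions). They made up between 4.83 and 9.92% of those of Srsf1 (3 junctions), and between 1.99 and 2.74% over all 10 genes (15 junctions). In Srsf2 they include a junction outside the exon described above.

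Among events with a mean of at least 1 read per mouse on each isoform, 10 of 46 SR events were called between the genotypes under vehicle (21.7%, against 3.62% of 30362 events), 3 of 47 under drug (6.38%, against 3.46%), 1 of 40 for the drug in WT (2.50%, against 1.05%) and 0 of 49 for the drug in S34F mice (against 1.55%). For S34F drug against WT vehicle mice it was 10 of 47 (21.3%, against 6.54%). Events of a gene can share junctions, as the Srsf11 events above do, so these are not counts of separate units. SR events and all events were not matched for reads. Where the reads that enter an intron anywhere were set against the reads that splice it in a single step, the same introns of Srsf2, Srsf3 and Srsf11 were called between the genotypes under vehicle (3 of 31, against 0.866%), and that of Srsf3 for the drug in WT (1 of 28, against 0.328%). Between the genotypes under drug those of Srsf2 and Srsf11 were called (2 of 29, against 0.721%), for the drug in S34F mice none (0 of 29, against 0.353%), and for S34F drug against WT vehicle mice 6 of 30 (against 1.55%). These ways of counting were chosen after the data were seen.

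The kinases that phosphorylate the SR tails and move SR proteins into and out of nuclear speckles were among 9 regulators listed for this description (Srpk1, Srpk2, Clk1 to Clk4, Tra2a, Tra2b, Tnpo3). Clk1, a kinase that releases SR proteins from speckles, fell under drug in WT (log2 −0.64 ± 0.11, FDR 0.0117) and in S34F marrow (−0.27 ± 0.07, FDR 0.0318). It was lower in S34F than in WT vehicle mice (−0.56 ± 0.09, FDR 0.000998) and was not called between the genotypes under drug. The drug comparison in WT and the genotype comparison under vehicle share the WT vehicle mice. In WT marrow Clk1 was the single call among the 9 for the drug (3.07% of all genes were called), while in S34F marrow, where 10.8% of all genes were called, Srpk2 (−0.29 ± 0.08) and Clk4 (−0.22 ± 0.07) fell too. The median log2 fold change of the 9 was −0.16 in WT and −0.01 in S34F mice. Between the genotypes under vehicle 3 of 9 fell (Clk1, Clk2, Clk3) and none rose, with a median of −0.02; of all genes 19.8% fell and 19.7% rose in this comparison, with a median of 0.00207.

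Of the 15 other SR-related proteins listed, 14 could be tested, and 2 rose and 6 fell between the genotypes under vehicle, where 19.7% of all genes rose and 19.8% fell, with a median log2 fold change of −0.14. Srrm1 (−0.74 ± 0.10, FDR 0.000269), a coactivator that bridges SR proteins, and Scaf4 (−0.69 ± 0.09, FDR 0.000247) fell, and Luc7l3 (0.47 ± 0.08, FDR 0.000809), a U1-associated protein, and U2surp (0.45 ± 0.07, FDR 0.000795), a U2-associated SR-related protein, rose. None was called for the drug in WT or in S34F mice. Of the 10 NMD factors listed, 2 rose and 2 fell in S34F against WT mice under vehicle, with a median of −0.01; this share is close to the 39.5% of all genes that were called. Upf3b (0.32 ± 0.09, FDR 0.0128) and Smg8 (0.23 ± 0.09, FDR 0.0556) rose and Smg6, the endonuclease of the pathway, fell (−0.22 ± 0.08, FDR 0.0407); Upf1, its helicase, fell (−0.22 ± 0.08, FDR 0.0594). Under drug Smg6 fell in S34F mice (−0.19 ± 0.05, FDR 0.0501) and was not called in WT mice. The part of NMD activity in the poison shares was not tested.

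The SR genes whose levels moved together over the mice, after the group means were taken out, included Srsf1, Srsf3, Srsf6 and Srsf10, with the highest Pearson r over the 20 mice in the pairs Srsf1 and Srsf3 (0.95), Srsf1 and Srsf6 (0.93), Srsf3 and Srsf10 (0.90) and Srsf3 and Srsf6 (0.89). Srsf4 (r between −0.39 and 0.43) and Srsf9 (r between −0.0039 and 0.37) had no high r with any of the others. Among 15382 other genes the 3 whose levels were most like the mean of the 10 were 2 small nucleolar RNAs, snoU97 (r = 0.93) and SNORA79 (0.92), and Hnrnph1 (0.89), an hnRNP splicing regulator. These values describe likeness over mice that share libraries and depth, and carry no test.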

How the data were processed

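Stranded, ribosomal RNA-depleted libraries of bone marrow from 20 mice were aligned by the authors with TopHat2 2.0.8 to mm9. The authors deposited whole-number read counts per gene and per splice junction, 1 column per mouse; the counting program and its strand setting are not given in the sources used here. Samples were grouped by genotype and treatment from the labels. Genes were tested with edgeR 4.0.16 (R 4.3.3; filterByExpr, TMM, quasi-likelihood test, prior count 2) and called at FDR<10%, with Benjamini-Hochberg adjustment over all genes tested. Events were built from junctions between annotated splice sites (GENCODE gene models on NCBIM37) and needed a mean of 10 reads per mouse. Ψ was the share of reads on an isoform, per junction. Inclusion and skipping reads were tested with edgeR (a term per mouse, a group effect, dispersion 0, quasi-likelihood variance moderated over the reads of the minor isoform), and called at FDR<10% with a difference in Ψ over 1%. That variance trend was chosen on simulated data after a first version made too many false calls. On simulated counts for drug against vehicle in WT mice, 135 of 200 changed genes were recovered among 14552, with 7.53% of calls false, and 127 of 200 changed events among 58184, with 4.51% false. Event changes were planted only in well covered events of intermediate Ψ, with the same spread between mice in every event. Recovery was not measured at the low Ψ of called events such as those of Srsf2, Srsf5 and Srsf9. The false rate of events holds for that spread alone.

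An isoform was classed as poison where it was found only in annotated NMD transcripts or where its frame ended more than 50 bases before the last junction. All 10 genes, every event from annotated splice sites called in any comparison, and the best covered poison event of each gene were named, where such an event was found. Single values were compared with 2-sided exact permutation tests. The p-values measure the spread between mice. The members and gene lists were chosen with earlier results of these data known. Alternatives used DESeq2 1.42.0, limma 3.58.1, other filters, other models and each mouse left out. Python 3.11.15, numpy 2.4.6, pandas 2.3.3 and matplotlib 3.10.9 were used. Depth limits the low isoforms: intervals were not computed, since mice and not reads were the replicates.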

Additional observations from a re-analysis of the deposited data

Results flagged for a closer look

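Single mice stood apart from the other 4 of their group in 6 of 100 sets of values examined by Dixon's test, which chance does in about 1 in 20. In gene level, WT drug mouse 12 had 53.9 CPM of Srsf2 (nearest mouse 42.7), WT vehicle mouse 4 had 67.0 CPM of Srsf10 (nearest 75.4) and S34F drug mouse 2 had 122 CPM of Srsf11 (nearest 111). In splicing, WT drug mouse 9 had the Srsf2 exon at 7.39% (nearest 3.77%), S34F drug mouse 2 had the Srsf7 poison exon at 12.3% (nearest 8.19%) and WT drug mouse 10 had the Srsf11 skipping junction at 16.7% (nearest 2.56%), the last from 18 reads.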

How the results depend on the processing

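The counts of SR genes and events called were recomputed under other settings. With each mouse left out in turn, the number of SR genes called was 0 to 1 for the drug in WT mice (1 without WT vehicle mouse 2, Srsf5), 0 to 1 for the drug in S34F mice (1 without S34F vehicle mouse 5, Srsf9), 3 to 5 and 3 to 5 between the genotypes under vehicle and under drug, and 4 to 6 for S34F drug against WT vehicle mice. The number of SR events was 1 to 1, 0 to 0, 3 to 6 (3 without WT vehicle mouse 1, WT vehicle mouse 5 or S34F vehicle mouse 3), 3 to 3 and 4 to 6 in the same order. Where the difference in Ψ had to pass 5%, 0 events were called for the drug in WT mice, 2 and 1 between the genotypes under vehicle and under drug, and 2 for S34F drug against WT vehicle mice. With limma on Ψ there were 0 for the drug in WT mice and 1 between the genotypes under vehicle. With unannotated splice sites there were 2 for the drug in WT mice, 8 between the genotypes under drug and 12 for S34F drug against WT vehicle mice. The following were chosen after the data were seen: a variance trend over all reads gave 2, 5 and 11 in these 3 comparisons; at least 1 read on each isoform gave 10 between the genotypes under vehicle and 10 for S34F drug against WT vehicle mice; whole introns gave 3 between the genotypes under vehicle. The causes were not tested. Of 2528 values of single genes and events under an alternative, 2415 kept their side of the threshold, 83 lost the call and 30 gained it. Direction was compared only for values called in the main setting or under the alternative, and 0 of these reversed.

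Mice of both genotypes share some replicate numbers, 3 under vehicle and 4 under drug. The deviations of mice with the same number correlated between −0.05 and 0.13 under vehicle and between −0.11 and 0.21 under drug. The mouse of the same number was the closest of the other genotype for number 3 under vehicle and number 10 under drug. So few pairs cannot settle whether the numbers pair the mice. With the replicate number as a block, 3 SR genes and 2 SR events were called under vehicle, and 1 gene and 3 events under drug. The same mice without the block gave 3 events under vehicle and 2 genes under drug.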
